A study of Mus musculus with 6 samples.

Results

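The long noncoding RNAs Malat1 and Neat1 and the snoRNA host transcripts Gas5, Snhg1, Snhg3, Snhg6, Snhg8 and Snhg12 were followed across CD4SP and CD8SP iT cells. The members were the rows carrying these 8 gene names, out of 23420 rows of a table of TPM, and all 8 were found. TPM are transcript levels divided by transcript length and scaled to about the same total in every library. iT cells are mouse T lymphocytes regenerated in vivo from C57BL/6 (CD45.2) embryonic stem cells of the iR9 line, in which a doxycycline-inducible Runx1-p2a-Hoxa9 cassette sits in the Rosa26 locus. Blood progenitors made from these cells in culture were given to sublethally irradiated adult B-NDG mice (CD45.1), a strain without T, B or NK cells of its own, and CD4SP or CD8SP iT cells were sorted from the spleen by flow cytometry. Doxycycline was added during the culture, and the paper describes giving the progenitors to the mice without it. Both populations therefore shared the stem cell line, the cassette, the host strain and the organ, and differed in the sorted coreceptor. Each population had 3 libraries of polyA RNA from aliquots of 1000 cells, amplified as cDNA before sequencing. The labels do not say whether the replicates came from separate mice, so p-values measure only the spread between these libraries, and no wild-type T cells were among the samples analysed here.

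Malat1 and Neat1 are abundant nuclear RNAs made from neighbouring genes. Malat1 collects in nuclear speckles, which hold splicing factors, and Neat1 forms the scaffold of paraspeckles. Both long transcripts are cut at their end by RNase P and keep an A-rich tract encoded in the genome in place of a polyA tail, whereas the short Neat1 isoform is polyadenylated. The Snhg genes and Gas5 carry small nucleolar RNAs (snoRNAs) in their introns, which guide the methylation or pseudouridylation of ribosomal RNA. Their spliced exons make a transcript with little coding capacity that is usually degraded by nonsense-mediated decay when ribosomes engage it. Many of these genes start, like ribosomal protein genes, with a run of pyrimidines called a 5′ TOP, which ties translation of the transcript to growth signals.

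The tracts at the ends of the 2 nuclear RNAs are shown because the libraries were made from polyA RNA. The motif searched for, on the sense strand of the annotated transcripts, was AAAAAGCAAAA, the last 11 bases of Neat1-201, in capitals below. It lay at positions 6681 to 6691 of the 6983-base Malat1-201, 292 bases before its annotated end, and at positions 20761 to 20771 of the 20771-base Neat1-201. The motif was present in 618 of 141767 GENCODE transcripts (0.436%), and 0 of the 6 hosts had it in their longest transcript. Whether priming at these tracts contributed to the levels below was not tested.

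Malat1: ttccctagctttaaaaaaaAAAAAGCAAAA
Neat1: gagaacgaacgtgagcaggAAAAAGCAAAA

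Neat1 (GRCm38, chr19:5824708-5845478, minus strand) was higher in CD4SP iT cells. The CD4SP libraries had 139, 164 and 164 TPM and the CD8SP libraries 110.1, 108 and 96.1 TPM. Every CD4SP library lay above every CD8SP library. The means were 156 ± 14.4 and 105 ± 7.54 TPM (SD, n = 3 each), 1.49-fold apart. On log2(TPM + 1) the difference, CD4SP minus CD8SP, was 0.57 (95% interval 0.28 to 0.85; limma adjusted p = 0.0154), which is past the p threshold and short of 2-fold. The adjusted p of Neat1 in limma ran from 0.0146 to 0.222 over 15 alternatives and stayed under 0.05 in 8 of them. Not every alternative that failed is listed here. Among them, the adjusted p of Neat1 was 0.0585 without CD4SP replicate 3, 0.0527 without CD8SP replicate 1 and 0.0567 without CD8SP replicate 2. It was 0.0507 when ribosomal protein genes were removed and the rest rescaled. Under median-of-ratios rescaling the difference of Neat1 was 0.26 (limma adjusted p = 0.222) and under quantile normalization 0.35 (limma adjusted p = 0.0894). In bulk libraries such as these, fewer cells of a type and less RNA per cell cannot be told apart.

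Malat1 (GRCm38, chr19:5795690-5802672, minus strand) was the lowest of the 8 in both populations. The CD4SP libraries had 37.3, 25.4 and 33.8 TPM and the CD8SP libraries 22.3, 24.2 and 23.9 TPM. The populations did not overlap, but CD4SP replicate 2 lay just above the highest CD8SP library. The means were 32.2 ± 6.13 and 23.5 ± 1.02 TPM (SD, n = 3 each). The log2 difference was 0.42 (95% interval 0.015 to 0.83; limma adjusted p = 0.124) and did not pass the test. Without CD4SP replicate 2 the difference of Malat1 was 0.58 with a limma adjusted p of 0.0192. The adjusted p of Malat1 in limma was under 0.05 in 1 of 15 alternatives. Without CD4SP replicate 1 the difference was 0.31 (limma adjusted p = 0.297). It was 0.12 under median-of-ratios rescaling (limma adjusted p = 0.591) and 0.12 under quantile normalization (limma adjusted p = 0.628). Without ribosomal protein genes it was 0.27 (limma adjusted p = 0.298). The level of Malat1 over the 6 libraries stood at the 61.7th percentile of the tested genes and that of Neat1 at the 90.4th.

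The level of Neat1 divided by that of Malat1 was 3.74, 6.47 and 4.85 in CD4SP iT cells and 4.93, 4.46 and 4.01 in CD8SP iT cells. The ratios overlapped, with means of 5.02 ± 1.37 and 4.47 ± 0.459 (SD, n = 3 each). The mean ratio was thus higher in CD4SP iT cells by 0.553 and, without CD4SP replicate 2, lower by 0.173. The summed level of the pair was 177, 190 and 198 TPM in CD4SP iT cells against 132, 132 and 120.02 TPM in CD8SP iT cells, with no overlap.

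**Figure D1:**
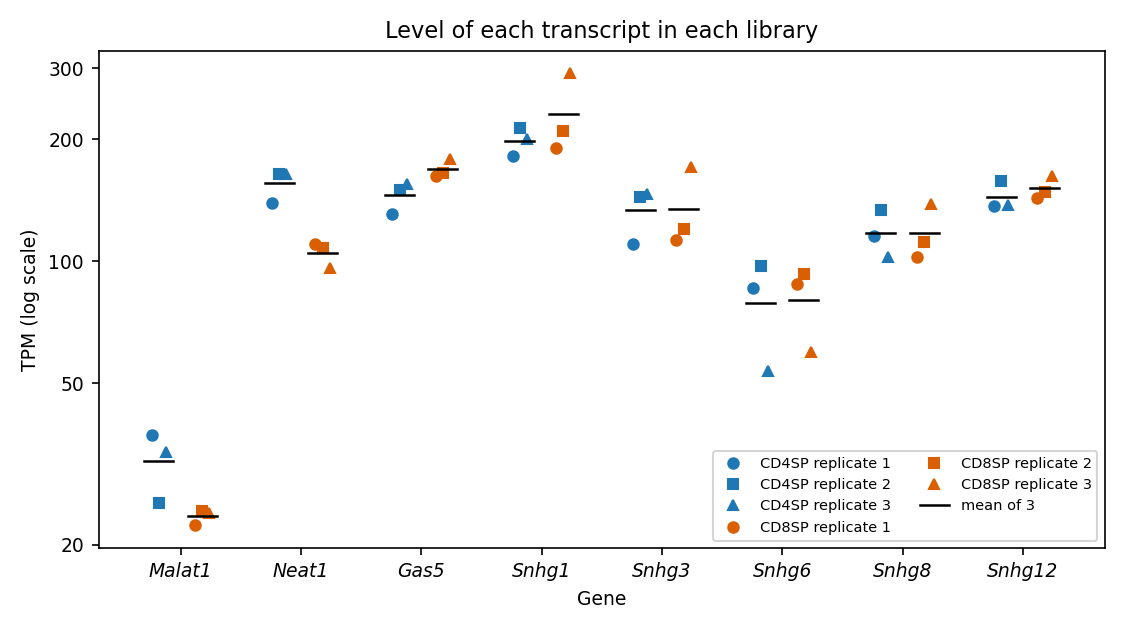
TPM (log scale) of the 8 transcripts in each library, with CD4SP libraries in blue, CD8SP libraries in orange, the replicate number shown by the symbol and a bar at the mean of 3. Neat1 and Malat1 sit higher in every CD4SP library, Gas5 sits higher in every CD8SP library, and the other 5 overlap.

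Of the 6 snoRNA hosts, 0 had an adjusted p under 0.05 in limma, 0 an unadjusted p under 0.05, and 5 had overlapping populations. Over all tested genes 20.8% had an adjusted p under 0.05, 37.1% an unadjusted p under 0.05, and 43.2% populations that did not overlap. Host levels were high and near one another, with means over the 6 libraries from 79.6 TPM (Snhg6) to 215 TPM (Snhg1), which is the 83.7th to the 94.2th percentile of the tested genes, whose median was 17.6 TPM. TPM are scaled to transcript length, and the levels are ordered here as deposited, though capture and amplification can differ between transcripts. The start sites of the hosts are shown first, because the comparison with ribosomal protein genes concerns them. Each line gives 20 bases before and 20 bases from an annotated RefSeq start (GRCm38.p6), on the gene's strand. Capitals mark a run of at least 6 C or T letters that begins with C within 10 bases of the start. Gas5 has 2 annotated starts, Snhg6 and Neat1 had no entry, and Malat1 is added for comparison.

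Gas5, chr1:161035146-161035185, plus strand: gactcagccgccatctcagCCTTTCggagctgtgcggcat
Gas5, chr1:161034581-161034620, plus strand: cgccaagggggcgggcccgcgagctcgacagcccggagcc
Snhg8, chr3:123508317-123508356, minus strand: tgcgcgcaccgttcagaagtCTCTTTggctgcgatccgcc
Snhg12, chr4:132308658-132308697, plus strand: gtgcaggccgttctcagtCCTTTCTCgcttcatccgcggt
Snhg3, chr4:132353667-132353706, minus strand: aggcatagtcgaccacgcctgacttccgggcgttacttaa
Snhg1, chr19:8723467-8723506, plus strand: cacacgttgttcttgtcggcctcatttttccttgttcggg
Malat1, chr19:5802653-5802692, minus strand: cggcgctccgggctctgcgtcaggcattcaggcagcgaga

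Such a run was found in 3 of the 6 host windows, 1 each of Gas5, Snhg8 and Snhg12. The same search found it in 33 of 68 start windows of ribosomal protein genes (48.5%) and in 6302 of all 32851 windows (19.2%). A match describes the letters in the window and not the start used in these cells, and the absence of a match says only that no such run lies there.

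Gas5 (GRCm38, chr1:161034422-161038539, plus strand), named for its accumulation in growth-arrested cells, was the only host whose populations did not overlap. The CD4SP libraries had 131, 150.3 and 156 TPM and the CD8SP libraries 162, 165 and 179 TPM. Every CD8SP library lay above every CD4SP library, by a small margin. The means were 146 ± 12.9 and 169 ± 8.91 TPM (SD, n = 3 each), and the log2 difference of -0.22 (95% interval -0.49 to 0.055; limma adjusted p = 0.221) did not pass the test. With TPM rescaled by the median of ratios, the difference of Gas5 was -0.52 with a limma adjusted p of 0.0395.

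Snhg12 (GRCm38, chr4:132308623-132311024, plus strand), which carries both box C/D and box H/ACA snoRNAs, was the steadiest of the 8. The CD4SP libraries had 137, 157 and 138 TPM and the CD8SP libraries 143, 148 and 163 TPM. The populations overlapped, and the highest of the 6 libraries was 1.18-fold above the lowest. The log2 difference was -0.07 (95% interval -0.34 to 0.20; limma adjusted p = 0.692).

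Snhg1 (GRCm38, chr19:8723475-8726443, plus strand), host to a row of box C/D snoRNAs, had the highest mean of the 8 in both populations. The CD4SP libraries had 182, 214 and 199.96 TPM and the CD8SP libraries 191, 209 and 291 TPM. CD8SP replicate 3 stood above the other 5 libraries, which lay close together. The means were 199 ± 16.0 and 230.4 ± 53.3 TPM (SD, n = 3 each), and the log2 difference was -0.19 (95% interval -0.57 to 0.19; limma adjusted p = 0.430). Without CD8SP replicate 3 the difference of Snhg1 was -0.012.

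Snhg3 (GRCm38, chr4:132348014-132353686, minus strand), host to 2 H/ACA snoRNAs, had 110.2, 144 and 147 TPM in CD4SP iT cells and 113, 119.9 and 171 TPM in CD8SP iT cells. Snhg8 (GRCm38, chr3:123507552-123508404, minus strand), host to Snora24, had 115, 134 and 103 TPM in CD4SP iT cells and 102, 111 and 139 TPM in CD8SP iT cells. For both hosts the highest CD8SP library was replicate 3, and the populations overlapped. The log2 differences were 0.0018 for Snhg3 (95% interval -0.43 to 0.43; limma adjusted p = 0.995) and -0.00017 for Snhg8 (95% interval -0.36 to 0.36; limma adjusted p = 0.999). The intervals of Snhg3 and Snhg8 hold differences of up to 0.43 and 0.36 in either direction, so equal levels were not shown.

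Snhg6 (GRCm38, chr1:9941959-9944118, minus strand), host to Snord87, had 86.1, 97.4 and 53.7 TPM in CD4SP iT cells and 87.8, 92.9 and 59.7 TPM in CD8SP iT cells. Replicate 3 was the lowest library in each population, and the highest library was 1.81-fold above the lowest, the widest spread of the 8. The log2 difference was -0.04 (95% interval -0.61 to 0.53; limma adjusted p = 0.925).

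Of the 8 members, 0 were called by limma at an adjusted p under 0.05 and over 2-fold, where 9.73% of the 10476 tested genes were called. CD4SP iT cells were the higher side for 7.92% of the genes and CD8SP iT cells for 1.8%. At an adjusted p under 0.05 alone, 1 member (Neat1) passed in limma against 20.8% of all genes (17.6% on the CD4SP side, as Neat1, and 3.23% on the CD8SP side), and at an unadjusted p under 0.05, 2 members (Neat1 and Malat1) passed against 37.1%. The populations did not overlap for 3 of the 8 members and for 43.2% of all genes. CD4SP libraries lay wholly above CD8SP libraries for 2 of the 8 members and for 36.6% of all genes. The reverse held for 1 member (Gas5) and for 6.61% of all genes. The median log2 difference over all tested genes was 0.28, so a gene with no difference on the TPM scale lay below most genes. Relative to that median, Neat1 was 0.28 higher and Malat1 0.14 higher, while the 6 hosts were lower, by a log2 difference of -0.28 (Snhg3) to -0.50 (Gas5). Rescaling by the median of ratios moved the median of all genes to 0.00017, quantile normalization moved it to -0.015, and removal of the ribosomal protein genes moved it to 0.14. Under median-of-ratios rescaling the log2 differences were 0.26 for Neat1, 0.12 for Malat1 and -0.52 to -0.30 for the 6 hosts. Relative to the median of all genes, Neat1 and Malat1 stayed above and each of the 6 hosts below under all 15 alternatives.

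**Figure D2:**
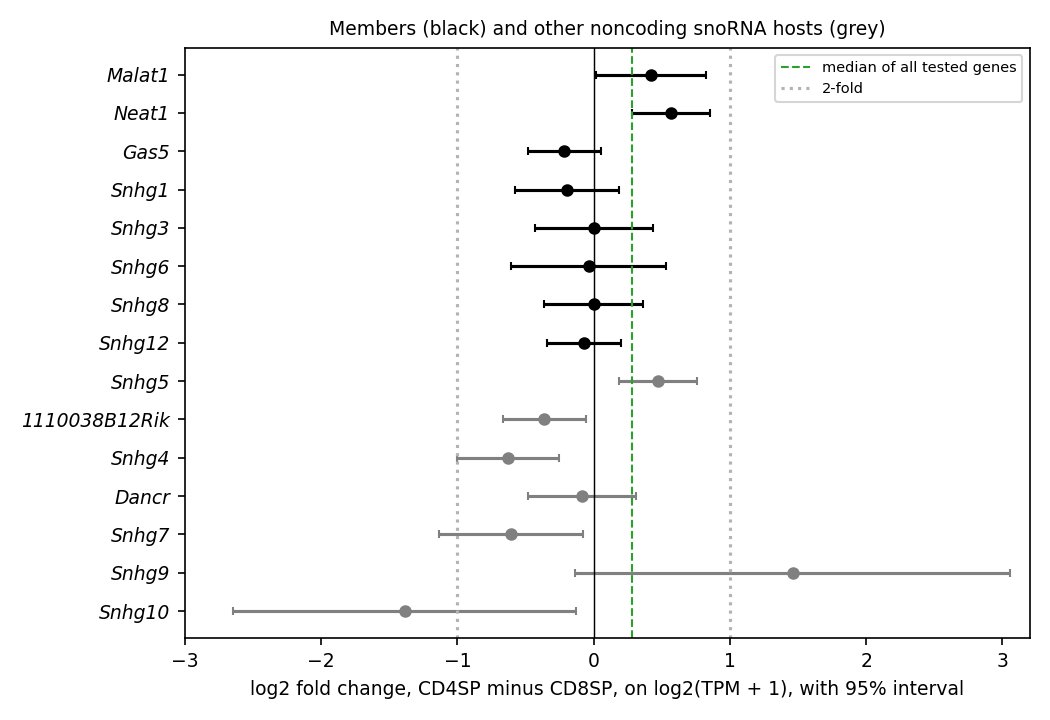
Log2 difference on log2(TPM + 1), CD4SP minus CD8SP, with its 95% interval, for the 8 members (black) and the other tested noncoding snoRNA hosts (grey). The green line marks the median of all tested genes at 0.28 and the dotted lines mark 2-fold. The interval of Neat1 runs from 0.28 to 0.85, and the points of the 6 black hosts lie left of the green line.

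Ordered by mean TPM within CD4SP iT cells, Snhg1 came first, then Neat1, Gas5, Snhg12, Snhg3, Snhg8, Snhg6 and Malat1. Neighbours in this order overlapped except at the steps from Snhg1 to Neat1, from Snhg8 to Snhg6 and from Snhg6 to Malat1. Within CD8SP iT cells the order was Snhg1, Gas5, Snhg12, Snhg3, Snhg8, Neat1, Snhg6 and Malat1, and neighbours overlapped except at the steps from Snhg1 to Gas5, from Neat1 to Snhg6 and from Snhg6 to Malat1. Neat1 thus stood second in CD4SP and sixth in CD8SP iT cells, while the order of the 6 hosts among themselves was the same in both. The summed host level divided by the summed level of Malat1 and Neat1 was 4.31, 4.73 and 4.02 in CD4SP and 6.04, 6.41 and 8.35 in CD8SP iT cells, with no overlap.

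The host level was then set beside the share of each library that went to transcripts of 79 cytoplasmic ribosomal protein genes. This share was 24.9%, 29.7% and 25.1% in CD4SP iT cells and 33.4%, 33.0% and 36.9% in CD8SP iT cells. Every CD8SP library lay above every CD4SP library, with means of 34.5 ± 2.13% and 26.6 ± 2.73% (SD, n = 3 each; exact two-sided permutation p = 0.1, the smallest that 3 against 3 libraries can give). The 6 hosts summed to 762, 897 and 796 TPM in CD4SP iT cells and to 800.0, 847 and 1003 TPM in CD8SP iT cells. The host sums overlapped, with means of 818 ± 70.2 and 883 ± 106 TPM (SD, n = 3 each). CD8SP iT cells had 1.298 times the ribosomal protein share and 1.08 times the host sum of CD4SP iT cells. The gap in the host sum was much larger under median-of-ratios rescaling, as given under the processing below. The values of each library add up to nearly the same total, so a larger ribosomal protein share leaves a smaller share for all other genes together. Among the TPM outside ribosomal protein genes, the hosts made up 0.102%, 0.128% and 0.107% in CD4SP and 0.120%, 0.127% and 0.159% in CD8SP iT cells, which overlapped as well. Without CD4SP replicate 2 the host sums no longer overlapped and differed by 104 TPM, and without CD8SP replicate 3 they differed by 5.02 TPM.

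Per 1000 TPM of ribosomal protein transcripts there were 3.07, 3.03 and 3.18 TPM of host transcripts in CD4SP iT cells and 2.40, 2.57 and 2.72 TPM in CD8SP iT cells. Every CD4SP library lay above every CD8SP library, with means of 3.09 ± 0.0781 and 2.56 ± 0.162 (SD, n = 3 each), 1.21-fold apart. The same held singly for Gas5, Snhg8 and Snhg12, while Snhg1, Snhg3 and Snhg6 overlapped. The share of all tested genes that separate on this ratio was not counted, so these separations are not read as particular to the hosts. On plain TPM, CD4SP libraries already lay wholly above CD8SP libraries for 36.6% of all tested genes. The ribosomal protein share was itself 1.298 times as high in CD8SP iT cells. On the TPM scale the median log2 difference of all genes was 0.28 toward CD4SP iT cells, with all 6 hosts below it. A typical gene therefore also lies higher in CD4SP iT cells on this ratio. This ratio does not depend on how a library is scaled. No test was run on it, as it is a score over chosen members.

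Within each population, the library with the largest ribosomal protein share also had the largest host sum. The other CD8SP libraries did not follow that order, as replicate 1 had the larger share and the lower host sum of the pair. In CD4SP iT cells this was replicate 2, the highest library for Snhg1, Snhg6, Snhg8 and Snhg12 and for 66 of the 79 ribosomal protein genes. In CD8SP iT cells it was replicate 3, the highest for 5 of the 6 hosts, Snhg6 excepted, and also for 66 of the 79 ribosomal protein genes. Among CD4SP libraries the coefficient of variation was 8.58% for the host sum, 10.3% for the ribosomal protein share and 2.53% for the ratio of host to ribosomal protein level. Among CD8SP libraries it was 12.01%, 6.18% and 6.33%, so there the ratio varied about as much as the share. With 3 libraries a population and a ribosomal protein share that separates the populations, no correlation was computed.

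**Figure D3:**
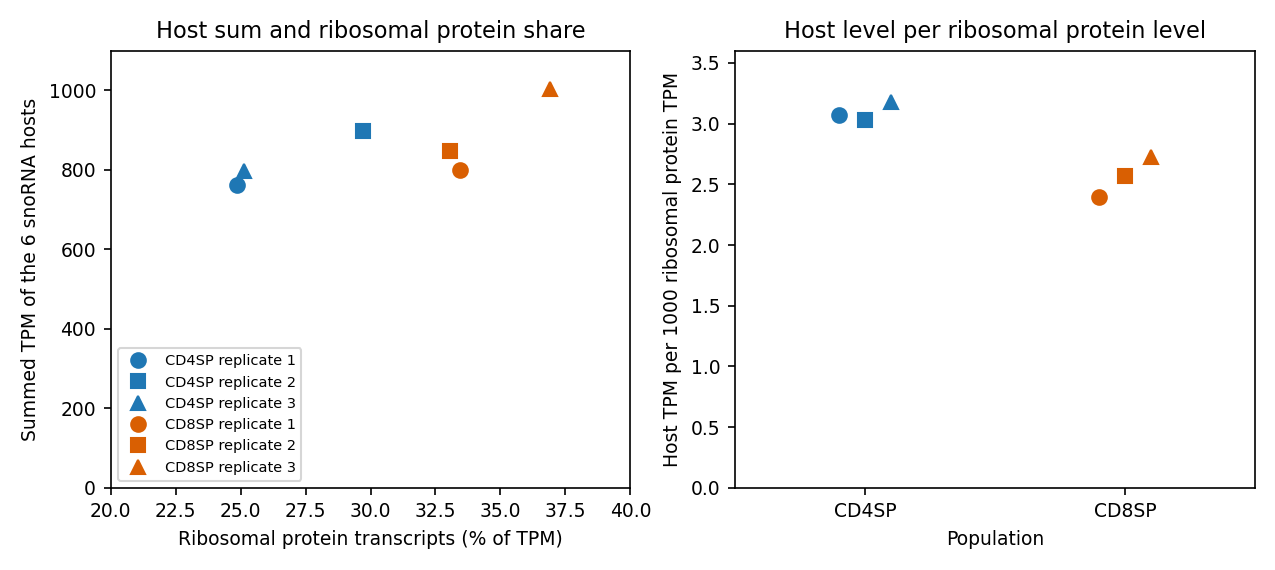
Left, summed TPM of the 6 snoRNA hosts against the ribosomal protein share of each library (percent of TPM). Right, host TPM per 1000 ribosomal protein TPM in each library by population. The CD8SP libraries lie to the right at 33.0% or more with host sums that overlap those of CD4SP iT cells, and the ratio is 3.03 or more in CD4SP and 2.72 or less in CD8SP iT cells.

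The snoRNAs carried by the hosts were examined next. GENCODE M21 (GRCm38) places snoRNA genes of 25 names inside the 6 hosts, of which 9 had a row and 8 were tested, and limma called 0 of these, with 1 (Snora44) at an adjusted or an unadjusted p under 0.05. The values come from amplified polyA RNA, which captures mature snoRNAs poorly, and a read over a snoRNA can also belong to a host transcript that retains the intron. Sequences are shown for 3 snoRNAs of Gas5 and Snhg12, for which level differences are given below (GRCm38, plus strand). Capitals mark the box C letters TGATGA and the box D letters CTGA of the C/D snoRNAs. Snora44, annotated as an H/ACA snoRNA, has no ACA in the last 8 bases of its annotated sequence and is printed without capitals.

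Snord47 in Gas5, chr1:161038082-161038158: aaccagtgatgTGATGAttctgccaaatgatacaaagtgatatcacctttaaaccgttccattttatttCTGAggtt
Snord99 in Snhg12, chr4:132310691-132310764: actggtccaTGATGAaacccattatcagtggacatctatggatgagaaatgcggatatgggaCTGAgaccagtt
Snora44 in Snhg12, chr4:132309941-132310069: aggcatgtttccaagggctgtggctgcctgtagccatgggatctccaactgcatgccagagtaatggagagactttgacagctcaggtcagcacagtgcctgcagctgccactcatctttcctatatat

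Snora44 was higher in CD8SP iT cells. It had 54.3, 29.9 and 42.3 TPM in CD4SP iT cells and 83.6, 70.2 and 77.1 TPM in CD8SP iT cells, with no overlap. The log2 difference of Snora44 was -0.89 (95% interval -1.37 to -0.41; limma adjusted p = 0.0210), short of 2-fold. Snora44 was called under 4 alternatives, median-of-ratios rescaling (-1.19), quantile normalization (-1.14), removal of ribosomal protein genes (-1.06) and the fit without CD4SP replicate 1 (-1.09), and its adjusted p in limma ran from 0.00337 to 0.0723 over 15 alternatives. Snord99 of the same host had 135, 134 and 91.7 TPM in CD4SP iT cells and 76.3, 99.3 and 92.0 TPM in CD8SP iT cells, a log2 difference of 0.41 that did not pass the test (limma adjusted p = 0.137). Snora61, the other measurable snoRNA of Snhg12, differed by -0.13 (limma adjusted p = 0.686). The 3 snoRNA rows within Snhg12 thus had log2 differences from -0.89 to 0.41 around a host at -0.07. Of the 10 annotated Snhg12 transcripts, 2 cover Snora44, 5 cover Snora61 and 3 cover Snord99 with an exon, and the share of these values that came from host transcripts was not tested.

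Snord47 of Gas5 had 117, 135 and 87.4 TPM in CD4SP iT cells and 104, 122 and 96.4 TPM in CD8SP iT cells, which overlapped (log2 difference 0.06, limma adjusted p = 0.826). Snord22 of Snhg1 had 70.1, 83.5 and 106.8 TPM in CD4SP iT cells and 105, 106.7 and 129 TPM in CD8SP iT cells (log2 difference -0.40, limma adjusted p = 0.136; -0.70 and 0.0396 under median-of-ratios rescaling). Snord87 of Snhg6 ranged from 2.83 to 33.7 TPM and varied more within each population than between them. Snora24 of Snhg8 and Mir5117, a row that lies within a snoRNA gene of Gas5, stayed between 0.973 and 2.51 TPM.

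Genes that share a locus with a member were checked, since the sources used here do not say whether counting used strand. Slc3a2, which encodes the heavy chain of an amino acid transporter, starts 106 bases from Snhg1 on the opposite strand. It had 146, 149 and 47.8 TPM in CD4SP iT cells and 54.7, 132 and 130 TPM in CD8SP iT cells and did not pass the test (log2 difference 0.05, limma adjusted p = 0.949). Slc3a2 was thus lowest in CD4SP replicate 3 and CD8SP replicate 1, libraries in which Snhg1 had 199.96 and 191 TPM. Whether reads of either gene entered the value of the other was not tested. Rcc1, the exchange factor of the GTPase Ran, overlaps Snhg3 by 5592 bases on the same strand and had 2.08 to 5.63 TPM. Zbtb37 overlaps Gas5 by 428 bases on the other strand and had 0.213 to 1.57 TPM, and Mcmdc2, which overlaps Snhg6 by 127 bases, was listed at 0 in all 6 libraries. A search of the longest member transcripts against all GENCODE transcripts (at least 95% identity over 200 bases) found only antisense genes of the same loci, Gm37376 for Malat1 and Gm17300 for Snhg3, which had no row.

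Other genes of the same machinery were summarised by list. All 79 ribosomal protein genes had a log2 difference below 0 (median -0.38), limma called 0 of them, and at an adjusted p under 0.05 alone 27 were higher in CD8SP and 0 in CD4SP iT cells (53 and 0 at an unadjusted p under 0.05). Rplp1, a protein of the ribosomal stalk, had 11111, 14186 and 11370.3 TPM in CD4SP iT cells and 16556, 15887 and 17316 TPM in CD8SP iT cells, with no overlap. The log2 difference of Rplp1 was -0.45 (limma adjusted p = 0.0320), and the adjusted p stayed under 0.05 in 4 of the 14 alternatives that gave a value. It was -0.76 under median-of-ratios rescaling (limma adjusted p = 0.0451) and -0.16 under quantile normalization (limma adjusted p = 0.345). Of the other hosts, other 5′ TOP genes, snoRNA-binding proteins and paraspeckle and speckle proteins limma called 0 genes. Counts for these lists are of genes at an adjusted p under 0.05 alone, followed by the number at an unadjusted p under 0.05. Over all tested genes, 17.6% passed the adjusted p on the CD4SP side and 3.23% on the CD8SP side, and 37.1% the unadjusted p.

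Of the other noncoding snoRNA hosts, 7 were tested (median log2 difference -0.36), and 1 was higher in each population (5 in all at an unadjusted p). Snhg5 had 187, 228 and 180.1 TPM in CD4SP iT cells and 145, 144 and 136 TPM in CD8SP iT cells (log2 difference 0.47, limma adjusted p = 0.0316). Snhg4, named after its values were seen, went the other way, with 35.1, 52.2 and 45.6 TPM in CD4SP iT cells and 66.4, 69.8 and 68.2 TPM in CD8SP iT cells (log2 difference -0.63, limma adjusted p = 0.0301). The adjusted p stayed under 0.05 for Snhg5 in 5 and for Snhg4 in 8 of 15 alternatives. Snhg5 no longer passed under median-of-ratios rescaling (0.17, limma adjusted p = 0.525), quantile normalization (0.26, 0.253) or without ribosomal protein genes (0.31, 0.147), while Snhg4 was at -0.93 (limma adjusted p = 0.0160) under the first. 1110038B12Rik had a log2 difference of -0.36 that did not pass the test (limma adjusted p = 0.0882) but did under median-of-ratios rescaling (-0.67, 0.0224), under quantile normalization (-0.61, 0.0285), without ribosomal protein genes (-0.53, 0.0328) and without CD4SP replicate 2 (-0.43, 0.0400). Snhg11 was listed at 0 in all libraries. On the TPM scale Snhg5 and Snhg4 thus passed in opposite directions, and the 6 member hosts lay between them.

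Of 12 protein-coding snoRNA hosts (median -0.28; 6 at an unadjusted p), 2 were higher in CD8SP and 0 in CD4SP iT cells, the snoRNP protein gene Nop56 (log2 difference -0.65, limma adjusted p = 0.0452) and the elongation factor gene Eef1b2 (-0.45, limma adjusted p = 0.0128), both named after their values were seen. The most abundant of them, Tpt1, a 5′ TOP gene, had a difference of 0.15 (limma adjusted p = 0.275), and Gnb2l1, which encodes the ribosomal scaffold RACK1, one of -0.40 (limma adjusted p = 0.0686). Under median-of-ratios rescaling Tpt1 turned to -0.15 and Gnb2l1 passed at -0.71 (limma adjusted p = 0.0133). Gnb2l1 also passed without ribosomal protein genes (-0.57, 0.0180) and without CD4SP replicate 1 (-0.53, 0.0264), and was at -0.15 (0.588) under quantile normalization. Of 13 other 5′ TOP genes (median -0.13; 3 at an unadjusted p), 2 were higher in CD8SP and 0 in CD4SP iT cells, Eef1g (-0.63, limma adjusted p = 0.0243) and Npm1 (-0.57, limma adjusted p = 0.0485), also named after their values were seen. The adjusted p stayed under 0.05 for Nop56 in 6, Eef1b2 in 10, Eef1g in 9 and Npm1 in 5 of 15 alternatives. Eef1a1, the main elongation factor, had a difference of -0.32 (limma adjusted p = 0.193; -0.62 and 0.0334 under median-of-ratios rescaling) and the initiation factor gene Eif3f one of -0.06 (limma adjusted p = 0.754).

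The proteins that bind snoRNAs had a median log2 difference of -0.37 over 11 tested genes (5 at an unadjusted p), and 3 were higher in CD8SP and 0 in CD4SP iT cells. Fbl, which encodes the methyltransferase fibrillarin, had 168, 134 and 149 TPM in CD4SP iT cells and 226, 253 and 205 TPM in CD8SP iT cells (log2 difference -0.60, limma adjusted p = 0.0164). Nhp2, an H/ACA protein gene named after its values were seen, differed by -0.64 (limma adjusted p = 0.00517), and Nop56 was the other. Nhp2l1, which encodes a C/D core protein, did not pass the test (-0.04, limma adjusted p = 0.787).

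Lists of proteins that share a nuclear body with Neat1 or Malat1 had medians above 0. Levels are given per gene, so the long and short isoforms of Neat1 cannot be told apart here. Of 11 paraspeckle protein genes (median 0.36; 4 at an unadjusted p), 1 was higher in CD4SP and 0 in CD8SP iT cells. This was Sfpq, an essential paraspeckle protein named after its values were seen, with 114, 112 and 134 TPM in CD4SP iT cells and 80.7, 90.6 and 82.1 TPM in CD8SP iT cells (log2 difference 0.50, limma adjusted p = 0.0263). Its partner Nono had a difference of 0.25 (limma adjusted p = 0.162) and Hnrnpk one of 0.38 (limma adjusted p = 0.125; 0.54 and 0.0169 without CD4SP replicate 2). Of 10 nuclear speckle genes (median 0.30; 4 at an unadjusted p), 3 were higher in CD4SP and 0 in CD8SP iT cells, Srsf5 (0.69, limma adjusted p = 0.0195), Son (0.58, limma adjusted p = 0.0298) and Srrm1 (0.64, limma adjusted p = 0.0407), all named after their values were seen. The splicing factor genes Srsf2 (0.19, limma adjusted p = 0.407) and Srsf3 (0.24, limma adjusted p = 0.218) did not pass the test. Over all tested genes 17.6% passed the adjusted p on the CD4SP side and 3.23% on the CD8SP side, so these counts are not particular to the lists. Both medians were close to the 0.28 of all tested genes. Under median-of-ratios rescaling Nono was at -0.06, Srsf2 at -0.12 and Srsf3 at -0.06. The same rescaling took Sfpq to 0.20, Srsf5 to 0.38, Son to 0.28 and Srrm1 to 0.34, with limma adjusted p-values of 0.135 to 0.265, so that 0 of these 4 passed.

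**Figure D4:**
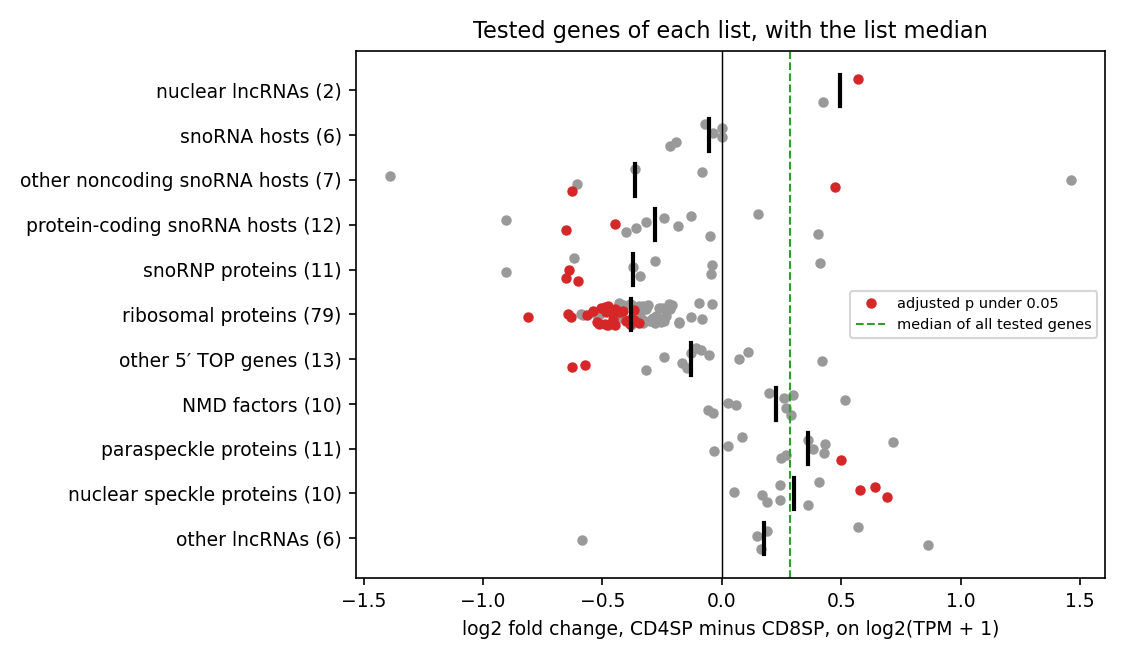
Log2 difference on log2(TPM + 1), CD4SP minus CD8SP, of the tested genes of each list (number in brackets), with a black bar at the list median, red points at a limma adjusted p under 0.05 and a dashed line at the median of all tested genes, 0.28. Ribosomal proteins lie left of 0 with a median of -0.38, the 6 snoRNA hosts have a median of -0.05, and the medians of the speckle and paraspeckle lists, 0.30 and 0.36, lie near the dashed line.

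The genes whose pattern over the 6 libraries was most like that of a member are given as a description, among 2639 tested genes with a mean of at least 50 TPM. The libraries share their scaling and their split into populations, so high coefficients are common. For the host sum these were Cox5b (Pearson r = 0.968), Gm5148 (0.954) and the ribosomal protein gene Rpl22 (0.943). For Malat1 they were Prkab1 (0.998), Eif4a2 (0.997) and Pnrc2 (0.995), and for Neat1 they were Mrpl44 (0.999), Kbtbd11 (0.994) and Ppp1cb (0.992).

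The sorted identity was checked against marker genes. Cd4 had 331, 281 and 279 TPM in CD4SP iT cells and at most 0.104 TPM in CD8SP iT cells, while Cd8a and Cd8b1 summed to 24.9 to 38.9 TPM in CD4SP iT cells and 3236 to 3562 TPM in CD8SP iT cells. The 4 CD3 chain genes summed to 2591 to 2751 TPM in CD4SP iT cells and 2265 to 2300.1 TPM in CD8SP iT cells. Of 5 B cell markers 2 were at 0, and their sum was 15.9 to 22.3 TPM in CD4SP iT cells and 21.3 to 24.5 TPM in CD8SP iT cells. Of 6 myeloid markers 2 were at 0, and their sum was 17.7 to 32.7 and 20.7 to 24.2 TPM. Among the myeloid markers limma called Lyz2 higher in CD4SP (log2 difference 1.68) and Cd68 higher in CD8SP iT cells (-2.41). The NK markers summed to 0.682 to 1.82 TPM in CD4SP iT cells and 5.22 to 9.14 TPM in CD8SP iT cells, with Ncr1 at 0 throughout and Klrb1c called higher in CD8SP iT cells (log2 difference -1.86, limma adjusted p = 0.00426). The erythroid markers reached at most 1.11 TPM and the platelet markers were at 0. Whether other cell types were present, or contributed to the levels of the 8 members, was not tested.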

How the data were processed

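RNA-seq of 3 CD4SP and 3 CD8SP iT cell libraries was analysed, grouped by the sample titles. The authors deposited 1 table of TPM per gene, made by aligning reads to mm10 with HISAT2 and estimating abundance with StringTie, as the methods and the submitters' processing notes name them. Annotation, strand use and duplicate removal are not given in the sources used here. Library totals were 997896 to 998100 TPM, and 9971 to 10649 genes reached 1 TPM per library. Read depth is unknown, so no counting interval is given. Of the rows, 9818 were at 0 in all libraries and 27 had names turned into dates.

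The 10476 genes that reached 1 TPM in 3 or more of the 6 libraries were tested with limma 3.58.1 (R 4.3.3) on log2(TPM + 1), with a mean-variance trend and Benjamini-Hochberg adjustment over all of them. The fold change is on that scale and understates low genes. Genes were called at an adjusted p under 0.05 and over 2-fold. The script was tested on simulated data. The ribosomal protein share was compared by an exact permutation test (scipy 1.17.1). Sequences come from GENCODE M21 and RefSeq tables, 5 hosts and Malat1 having a RefSeq promoter, and copies were searched with blastn 2.17.0.

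The members and lists were chosen with earlier results of these data known. Named are the members, of each list at most 4 called genes in each direction or else the 2 most abundant, neighbours that share a locus, snoRNA rows inside members and the 3 genes most alike in pattern. Other names are marked as chosen after their values were seen. For 1 list the other of the 2 most abundant genes is not reported here. Alternatives were another pseudocount, other filters, rescaling, the variance model, a replicate block, no fold threshold, single libraries left out, CD8SP replicates 1 and 2 averaged, another ribosomal protein gene set, and host sums without Snhg1. The labels list CD8SP replicates 1 and 2 as separate samples. They lay closer to each other than to replicate 3 for most members (Snhg1 191, 209 and 291 TPM). Whether they share a source that replicate 3 does not was not tested.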

Additional observations from a re-analysis of the deposited data

How the results depend on the processing

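The call of 0 members held under every alternative except the adjusted p alone, where limma passed 1 (Neat1). Over all genes limma called 1019, 2183 with the adjusted p alone, and 752 to 1042 with single libraries left out. Of the 1019 calls 81.5% were higher in CD4SP iT cells, against 62.0% under median-of-ratios rescaling, 57.1% under quantile normalization and 72.5% without ribosomal protein genes. The host sum, 64.8 TPM higher in CD8SP iT cells, was 243 TPM higher under median-of-ratios rescaling, 5.02 to 106.3 TPM higher with single libraries left out, and 32.9 TPM higher without Snhg1. With ribosomal protein genes chosen by name pattern the share differed by 7.87 percentage points, against 7.91, and the host level per 1000 ribosomal protein TPM by 0.531, against 0.530, which was 0.444 without Snhg1. The 6 libraries of unknown depth limit precision, and the causes of the shifts were not tested.

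Some log2 differences changed sign. Under median-of-ratios rescaling these were -0.30 for Snhg3, -0.26 for Slc3a2, -0.24 for Snord47, -0.15 for Tpt1, -0.10 for Smg9, -0.058 for Nono, -0.12 for Srsf2, -0.064 for Srsf3 and -0.13 for Tug1. Under quantile normalization they were -0.21 for Snhg3, -0.18 for Slc3a2, -0.17 for Snord47, 0.035 for Eif3f, -0.10 for Smg9 and -0.12 for Tug1. Without ribosomal protein genes they were -0.16 for Snhg3, -0.11 for Slc3a2, -0.10 for Snord47 and -0.011 for Tpt1. With CD8SP replicates 1 and 2 averaged they were -0.091 for Snhg3, 0.060 for Snhg6, -0.12 for Slc3a2 and 0.014 for Upf3a. With single libraries left out the differences ran from -0.11 to 0.19 for Snhg3, -0.23 to 0.22 for Snhg6, -0.10 to 0.13 for Snhg8, -0.37 to 0.58 for Slc3a2, -0.077 to 0.23 for Snord47, -0.37 to 0.93 for Snord87, -0.20 to 0.16 for Snora24, -0.31 to 0.053 for Snora61, -0.22 to 0.17 for Mir5117, -0.20 to 0.077 for Upf3a and -0.15 to 0.0054 for Eif3f.

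Deviations from the population mean had correlations of -0.0168 to 0.0887 between same-numbered libraries and -0.0866 to 0.0671 between differently numbered ones. With 3 libraries a population this check cannot exclude pairing. The labels do not state a pairing, and the libraries were treated as unpaired. Of the members, snoRNA rows and list genes given at a limma adjusted p under 0.05, markers apart, Nhp2 kept it under all 15 alternatives and the others under 4 to 11 of the 14 or 15 that gave a value. Of the markers called by limma, Cd4, Cd8a, Cd8b1, Lyz2 and Klrb1c kept an adjusted p under 0.05 wherever a value was given, and Cd68 did under 14 of 15, with 0.0539 without CD8SP replicate 3. With the replicate number as a block limma called 997 genes and 0 members.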

Other observations

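Nonsense-mediated decay degrades many snoRNA host transcripts. Of 10 genes of its factors, limma called 0 and 0 had an adjusted p under 0.05 in either direction, with 1 at an unadjusted p under 0.05 (median log2 difference 0.23, against 0.28 for all tested genes). Upf3a, a cofactor of the helicase Upf1, had 48.9, 40.6 and 59.8 TPM in CD4SP iT cells and 55.7, 57.7 and 41.8 TPM in CD8SP iT cells (log2 difference -0.06, limma adjusted p = 0.847). Smg9, a cofactor of the Upf1 kinase, had a log2 difference of 0.20 (limma adjusted p = 0.516). The populations overlapped for both.

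Of 12 other long noncoding RNAs with a row, 6 were tested and 4 were listed at 0 in all libraries. Limma called 0 of the 6, 0 had an adjusted p under 0.05 and 2 an unadjusted p under 0.05 (median log2 difference 0.18). Over all tested genes 20.8% had an adjusted and 37.1% an unadjusted p under 0.05. 2900097C17Rik, the gene of the cytoplasmic RNA Norad, had 71.0, 59.1 and 64.1 TPM in CD4SP iT cells and 49.9, 53.2 and 30.1 TPM in CD8SP iT cells, with no overlap (log2 difference 0.57, limma adjusted p = 0.0961). Tug1 had a log2 difference of 0.17 (limma adjusted p = 0.625), which was 0.43 without CD4SP replicate 2 (limma adjusted p = 0.0365) and 0.0029 without CD4SP replicate 3.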
